A study of Mus musculus with 12 samples.

Results

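The genes described here are 9 transcription factors of blood stem cells and of the erythroid and megakaryocyte lineages: Hlf, Myb, Gata2, Zfpm1, Klf1, Meis1, Hoxa9, Lmo2 and Tal1. They were taken by name, as every probe whose gene name on the array is one of these symbols, which gave 14 of the 41174 probes and 9 of the 27962 gene names. Expression was measured on 12 one-colour mouse microarrays of RNA from PUER cells, a myeloid line from mouse cells without PU.1 that carries PU.1 fused to the hormone-binding part of the estrogen receptor. All groups share this background, grew in IL-3, carried a retroviral vector and were sorted for its GFP marker. The groups were control vector before 4-hydroxytamoxifen (4-OHT), control vector after 24 h in 2 nM 4-OHT, Hnrnpa0 shRNA vector before 4-OHT, and Hnrnpa0 shRNA vector after the same treatment, with 3 arrays each (replicates A, B and C). The 3 experiments per vector used different clones, so a vector is known only from these clones, and the labels do not say which clone gave which array. 4-OHT switches on the fusion protein, but the drug itself and the time in culture come with it.

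These factors act together in normal blood formation. TAL1, a basic helix-loop-helix protein, and the LIM-only adaptor LMO2 join GATA factors in complexes that bind E-box and GATA motifs. GATA2 works in stem and early progenitor cells, ZFPM1 (FOG1) is the cofactor that GATA proteins need in erythroid and megakaryocytic cells, and KLF1 drives the globin and other red-cell genes. HLF, HOXA9 and its partner MEIS1 are known from stem cells and leukaemia, and MYB sustains the growth of progenitors. PU.1, which is activated here, opposes GATA factors and directs cells towards macrophages and granulocytes.

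Levels are log2 intensity relative to the array's 75th percentile, so a level of 0 is the percentile itself. That percentile lay between 1196 and 2583 intensity units, and 50.3% to 55.7% of the spots of an array were well above background. Adjusted p is from limma with Benjamini-Hochberg adjustment over 22362 probes, and a gene was called at an adjusted p below 0.05. Hnrnpa0, the gene targeted by the shRNA, read 3.05 ± 0.07 and 2.65 ± 0.07 (SD, n = 3) in control cells before and after 4-OHT and 1.5 ± 0.47 and 0.55 ± 0.09 in shRNA cells. The arrays lay on 3 slides, and the vectors shared no slide within a treatment. Control cells were on slide 1 (all 3 untreated arrays, and treated replicate A) and slide 2 (treated B and C). The shRNA cells were on slide 2 (untreated A and B) and slide 3 (untreated C, and all 3 treated arrays). The myeloid label was borne by the neutrophil primary granule list. Of its genes on the array, 9 of 9 were well above background on all arrays of every group. That list also holds the transcription factor genes Gfi1 and Cebpa and the receptor gene Csf3r.

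Over 24 h of 4-OHT the stem and erythroid-megakaryocyte factors fell in cells of both vectors. In control cells 7 of the 8 genes that could be tested were lower after 4-OHT and none was higher, and in shRNA cells 8 of 8 were lower. Hlf, Myb and Gata2 fell by more than 1 on the log2 scale at their brightest probe, Klf1 fell to readings at or near background, Hoxa9 and Lmo2 fell by less than that, and Zfpm1 and Tal1 had the smallest. By probe, 10 of 12 were lower in control cells, where 22.1% of all tested probes were lower and 17.6% higher. In shRNA cells 11 of 12 probes were lower and 1 Myb probe was higher, where 20.7% of all tested probes were lower and 16.6% higher. The median change over the 8 genes was -1.14 in control and -0.93 in shRNA cells, against -0.055 and -0.061 over all tested probes. The 3 arrays before and after 4-OHT did not overlap for 11 of 12 probes in control cells and 12 of 12 in shRNA cells, which held for 50.6% of all tested probes in each vector. In bulk RNA, fewer cells of a type and less RNA per cell cannot be told apart.

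**Figure D1:**
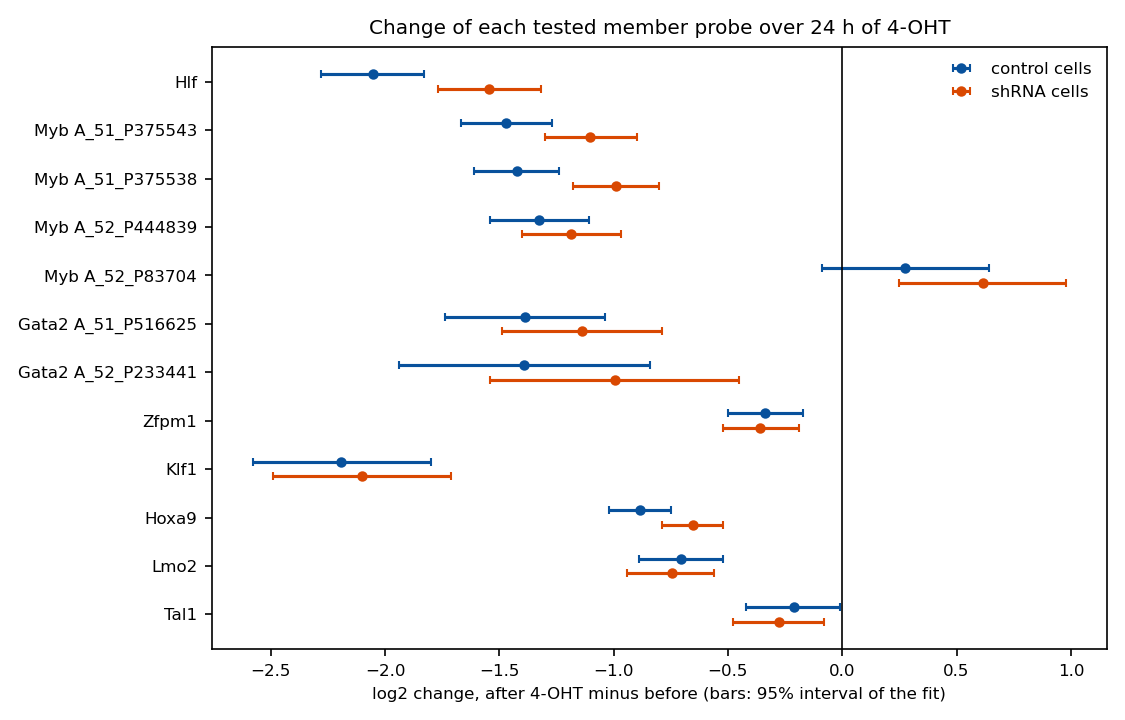
Log2 change over 24 h of 4-OHT (x axis) for each of the 12 tested probes of the 8 detected factors (y axis), in control cells (blue) and shRNA cells (orange), n = 3 arrays a group (2 for Tal1 after 4-OHT). Points are the fitted change and bars its 95% interval; all probes lie left of 0 except Myb A_52_P83704, at 0.27 in control and 0.62 in shRNA cells.

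Of the stem cell factors, Hlf encodes a PAR-domain basic leucine zipper protein. Its probe (A_51_P134228, chr11:90447703-90447762 on mm7, minus strand) read -1.15, -0.98 and -0.90 in control replicates A, B and C before 4-OHT and -3.07, -3.16 and -2.96 after it. In shRNA cells it read -0.92, -0.85 and -0.65 before and -2.42, -2.43 and -2.21 after. Every array after 4-OHT was below every array before it, and after 4-OHT the 3 shRNA arrays lay above the 3 control arrays. Hlf fell by 2.05 in control cells (SE 0.10, 4.15-fold, adjusted p = 9.17e-08) and by 1.55 in shRNA cells (SE 0.10, 2.92-fold, adjusted p = 9.16e-07). In order of level the groups ran from shRNA before, control before and shRNA after to control after, and the first and second overlapped.

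Hoxa9 encodes a homeobox protein that keeps progenitors immature. Hoxa9 read 0.23, 0.35 and 0.26 in control cells before 4-OHT and -0.56, -0.60 and -0.66 after it, and 0.20, 0.25 and 0.25 in shRNA cells before and -0.40, -0.38 and -0.48 after. Hoxa9 fell by 0.89 in control cells (SE 0.06, 1.85-fold, adjusted p = 1.27e-06) and by 0.65 in shRNA cells (SE 0.06, 1.57-fold, adjusted p = 1.52e-05). Replicates differed little: the SD of a group was 0.03 to 0.06. The 2 groups before 4-OHT overlapped, and after it the shRNA arrays lay above the control arrays.

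Meis1, the homeobox partner of Hoxa9, was not well above background with either probe on any of the 12 arrays and was not tested. Its level therefore has only an upper bound here. The probes were A_52_P26195 (chr11:18833212-18833271) and A_52_P670612 (chr11:18963253-18963312), both on the minus strand of mm7. Their readings ranged from -7.46 to -5.30 and from -7.51 to -6.11. The second probe is given so that the stretch behind this reading can be seen:

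Meis1 A_52_P670612: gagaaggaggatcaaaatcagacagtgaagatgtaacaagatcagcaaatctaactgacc

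Myb, the transcription factor that sustains progenitor growth, had 4 probes, all on the minus strand of mm7 chromosome 10. Along the gene's strand the first is A_52_P444839 (chr10:20878630-20878689), which matches the part that encodes the MYB repeats, the DNA-binding region. A_52_P83704 (chr10:20873040-20873099), designed to the cDNA clone AK036518, follows 5.59 kb downstream. A_51_P375538 (chr10:20851471-20851529) and A_51_P375543 (chr10:20851212-20851271) lie 27.2 and 27.4 kb downstream. The first probe is shown because it reads the coding part of the gene:

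Myb A_52_P444839: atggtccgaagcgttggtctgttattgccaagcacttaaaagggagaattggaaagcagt

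The brightest probe, A_51_P375543, was printed in 10 spots per array. It read 4.90, 4.93 and 4.91 in control cells before 4-OHT and 3.64, 3.40 and 3.28 after it, and 4.77, 4.74 and 4.86 in shRNA cells before and 3.66, 3.61 and 3.79 after. All 6 arrays before 4-OHT lay above all 6 after it, and the vectors overlapped after 4-OHT. It fell by 1.47 in control cells (SE 0.09, 2.77-fold, adjusted p = 4.70e-07) and by 1.10 in shRNA cells (SE 0.09, 2.15-fold, adjusted p = 5.14e-06). A_51_P375538 fell by 1.43 and 0.99 and A_52_P444839 by 1.33 and 1.19 in control and shRNA cells, so 3 of the 4 Myb probes moved the same way in both vectors.

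The Myb probe A_52_P83704, singled out here after its values were seen, did not fall. It read -0.97, -0.62 and -0.87 in control cells before 4-OHT and -0.92, -0.36 and -0.36 after it, which overlapped. In shRNA cells it read -1.01, -0.79 and -0.66 before and -0.36, -0.11 and -0.13 after, with every array after 4-OHT above every array before. The change was 0.27 in control cells (SE 0.17, adjusted p = 0.221) and a rise of 0.62 in shRNA cells (SE 0.17, 1.53-fold, adjusted p = 0.0135). Within an array, the difference between this probe and each of the other 3 rose with 4-OHT, by a mean over both vectors of 1.73 against A_51_P375543, 1.65 against A_51_P375538 and 1.70 against A_52_P444839. An exact permutation test with 400 relabellings within vector gave p = 0.005 for each of these pairs. Since the probe was chosen for this pattern, that p is no evidence for it, and the differences are a description. Whether this probe lies in an exon or an intron of Myb was not determined, since no annotation of mm7 was used here. The rise in shRNA cells did not pass with slide as a fixed block (0.46, adjusted p = 0.0672), on slide 3 alone (adjusted p = 0.118) or without shRNA replicate A before 4-OHT (0.52, adjusted p = 0.0542), and without control replicate A after 4-OHT the control cells passed too (0.46, adjusted p = 0.0214).

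**Figure D2:**
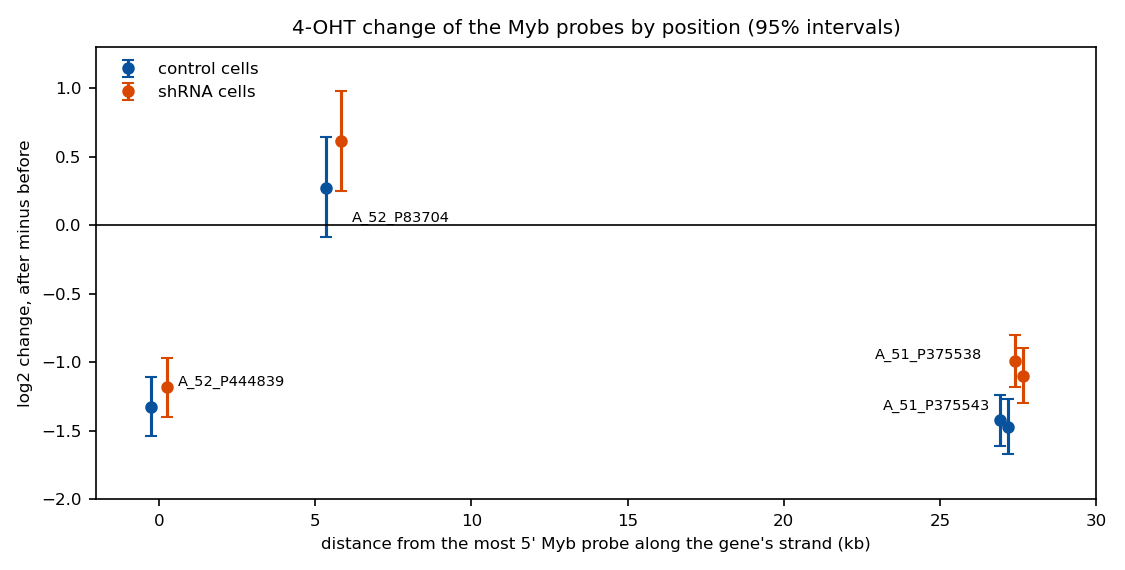
Log2 change over 24 h of 4-OHT (y axis) for the 4 Myb probes, placed by their distance in kb along the gene's strand from the most 5′ probe (x axis), in control (blue) and shRNA cells (orange), n = 3 arrays a group with 95% intervals. Points of the 2 vectors are drawn slightly apart; the probe at 5.59 kb is the only one of the 4 above 0.

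Among the erythroid-megakaryocyte factors, Gata2 encodes the GATA protein of stem and early progenitor cells and mast cells. Its brighter probe (A_51_P516625, chr6:88281934-88281993 on mm7, plus strand) read -2.42, -2.75 and -2.83 in control cells before 4-OHT and -3.79, -4.32 and -4.06 after it. In shRNA cells it read -2.63, -2.66 and -2.72 before and -4.07, -3.61 and -3.75 after. The arrays before and after were apart in both vectors, while the vectors overlapped at each time. Gata2 fell by 1.39 in control cells (SE 0.16, 2.62-fold, adjusted p = 5.22e-05) and by 1.14 in shRNA cells (SE 0.16, 2.20-fold, adjusted p = 0.000252). The dimmer probe (A_52_P233441, chr6:88281461-88281520) fell by 1.39 and 1.00, but only 1 of its 3 control arrays after 4-OHT was well above background. With normexp background correction the change in control cells was -0.69 (adjusted p = 0.00814) at the brighter probe and -0.35 (adjusted p = 0.234) at the dimmer one.

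Zfpm1, the GATA cofactor FOG1, moved little with 4-OHT. Its probe (A_51_P360840, chr8:120979158-120979217 on mm7, plus strand) read -0.74, -0.70 and -0.91 in control cells before 4-OHT and -1.16, -1.09 and -1.10 after it. In shRNA cells it read -1.17, -1.23 and -1.26 before and -1.57, -1.67 and -1.501 after. The groups ran in the order control before, control after, shRNA before and shRNA after, and the middle pair, with means of -1.12 and -1.22, lay close together without overlapping. Zfpm1 fell by 0.34 in control cells (SE 0.07, adjusted p = 0.00444) and by 0.36 in shRNA cells (SE 0.07, adjusted p = 0.00337). Within a slide, where 1 of the 2 arms has a single array, the change was -0.38 in control cells (adjusted p = 0.118) and -0.32 in shRNA cells (adjusted p = 0.148), and neither passed; with slide as a fixed block shRNA cells gave -0.32 (adjusted p = 0.051).

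Klf1, the erythroid Krüppel-like factor that drives globin genes, was dim, and its readings after 4-OHT lay at or near background. Its probe (A_51_P168630, chr8:83491092-83491151 on mm7, plus strand) read -3.11, -2.87 and -3.31 in control cells before 4-OHT and -2.97, -3.07 and -3.13 in shRNA cells. After 4-OHT it read -4.87, -5.39 and -5.60 in control cells, not well above background on any of the 3, and -5.02, -5.33 and -5.12 in shRNA cells, well above background on 2 of the 3. Klf1 was thus at least 3.89-fold lower in control cells after 4-OHT (adjusted p = 3.62e-06) and 4.29-fold lower in shRNA cells (log2 -2.10, SE 0.18, adjusted p = 5.77e-06), a mean that takes in 1 array not well above background. The bound sets the mean before 4-OHT against the dimmest signal that an array still called well above background, or the reading of the probe where that is higher. With normexp the log2 change of Klf1 was -0.77 in control (adjusted p = 0.00216) and -1.17 in shRNA cells (adjusted p = 7.95e-05).

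Tal1 and Lmo2 encode the core of the complex that joins the GATA factors to DNA. Tal1 (A_51_P255853, chr4:114448057-114448117 on mm7, plus strand) read 3.59, 3.44 and 3.61 in control cells before 4-OHT, and 3.36 and 3.31 in replicates B and C after it. In shRNA cells it read 3.42, 3.39 and 3.24 before, and 3.04 and 3.104 in B and C after. Replicate A after 4-OHT has no value in either vector, because the scanner software marked the spot as an outlier, so those groups hold 2 arrays. Tal1 changed by -0.21 in control cells (SE 0.09, adjusted p = 0.0922), which did not pass, and fell by 0.28 in shRNA cells (SE 0.09, adjusted p = 0.0379). The shRNA call ended without any 1 of shRNA replicates A or B or control replicates A or C before 4-OHT (adjusted p up to 0.106), with quantile normalization (adjusted p = 0.106), without the detection filter (0.107), with slide as a random block (0.0879) and with the replicate letter as a block (0.135), and in control cells the change was past the threshold with slide as a fixed block (-0.38, adjusted p = 0.0439).

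Lmo2, the LIM-only adaptor, was read by a probe (A_51_P223686) whose 60 bases are spread over 4714 bases of mm7, chr2:103826971-103831684 on the plus strand, so the probe joins separate stretches of the genome. It is open in all 3 forward reading frames and is shown for that reason:

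Lmo2 A_51_P223686: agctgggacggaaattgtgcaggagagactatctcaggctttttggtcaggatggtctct

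Lmo2 read 1.83, 1.66 and 1.67 in control cells before 4-OHT and 1.02, 1.00 and 1.03 after it, and 1.67, 1.53 and 1.402 in shRNA cells before and 0.83, 0.86 and 0.68 after. It fell by 0.70 in control cells (SE 0.08, 1.63-fold, adjusted p = 7.77e-05) and by 0.75 in shRNA cells (SE 0.08, 1.68-fold, adjusted p = 5.70e-05). All arrays before 4-OHT lay above all arrays after it, and after 4-OHT the shRNA arrays lay below the control arrays.

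**Figure D3:**
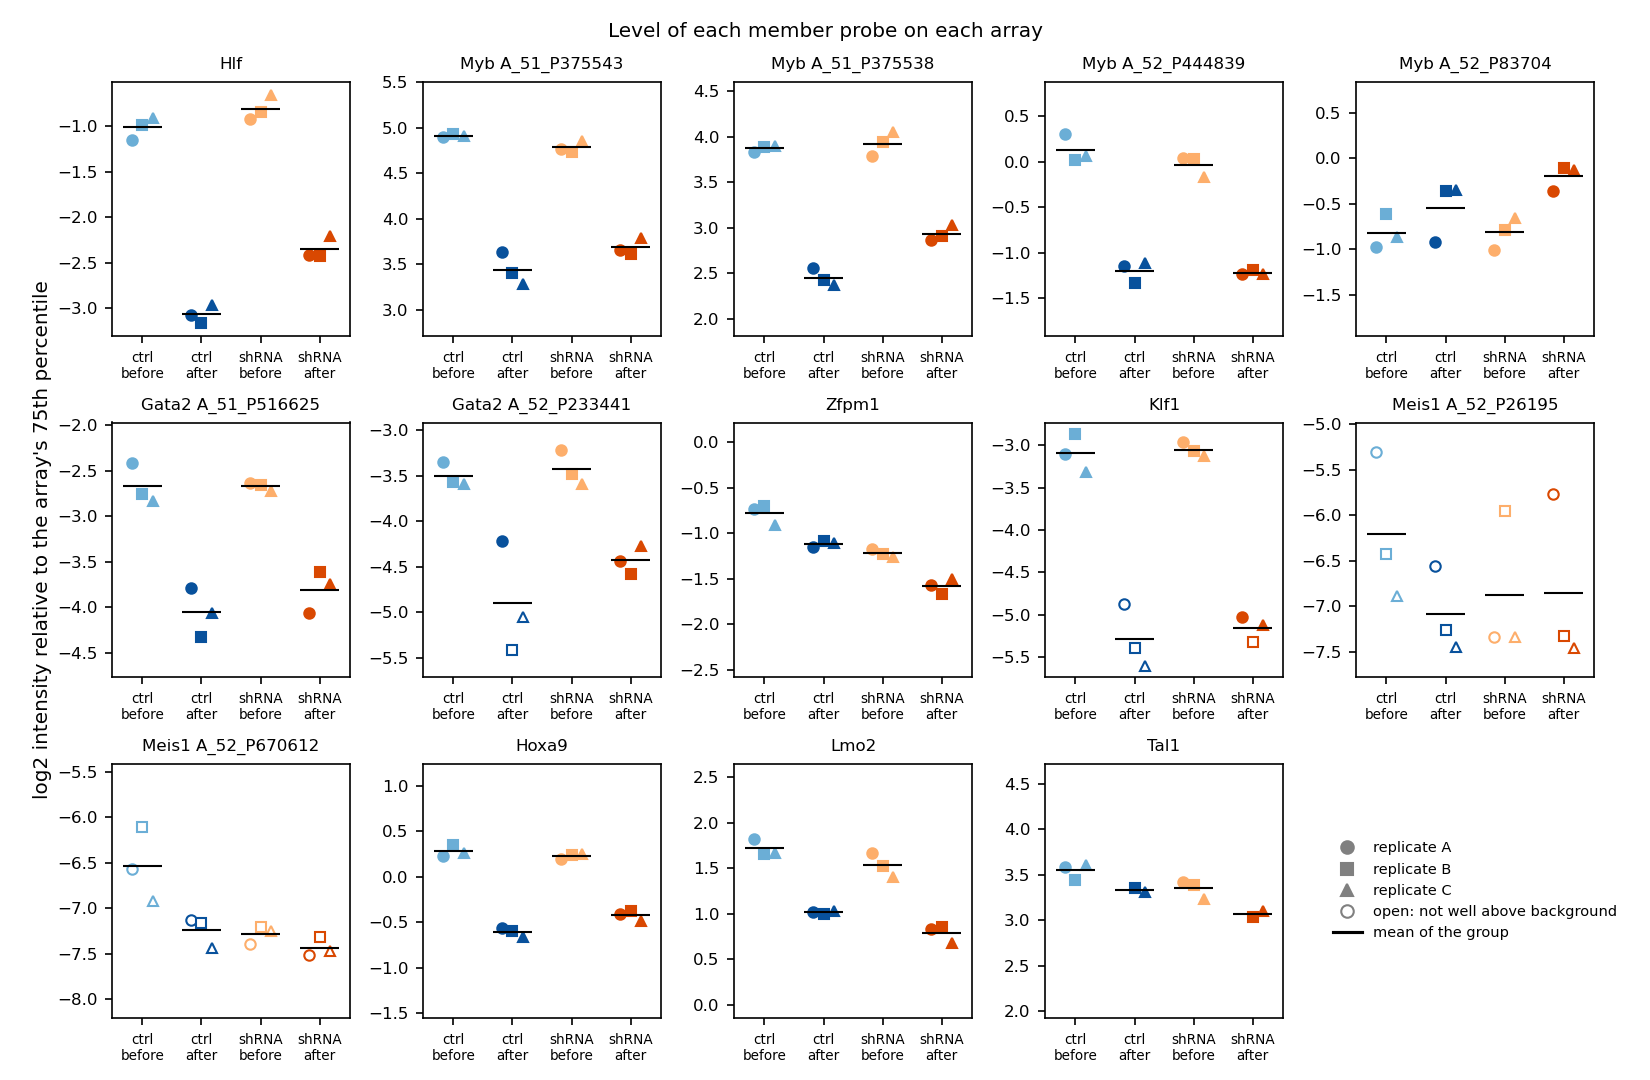
Log2 intensity relative to the array's 75th percentile (y axis, 1 scale per panel) of each of the 14 probes on each of the 12 arrays, by group (x axis). Symbols give replicates A, B and C, open symbols mark arrays not well above background, and lines are group means; the Meis1 panels hold only open symbols, and Klf1 is open on all 3 control arrays after 4-OHT.

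The falls were also measured on single slides. Slide 1 sets 3 control arrays before 4-OHT against 1 after it, and slide 3 sets 1 shRNA array before against 3 after, which takes the spread of the single array to be that of the rest. On each of them 6 member genes were past the threshold. Hlf changed by -2.06 on slide 1 and by -1.70 on slide 3, the brightest Myb probe by -1.28 and -1.17, and the brighter Gata2 probe by -1.12 and -1.09. Klf1 changed by -1.78 and -2.03, Hoxa9 by -0.84 and -0.67, and Lmo2 by -0.70 and -0.61. Each of these 12 values was past the threshold, with adjusted p between 0.00576 and 0.0452. Tal1 had no value after 4-OHT on slide 1.

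The vectors were compared at each time to learn what knockdown of Hnrnpa0 does to these factors. Before 4-OHT only Zfpm1 of the 8 genes was called, where 0.362% of all tested probes were. It was lower in shRNA cells by a log2 difference of -0.44 (SE 0.07, 1.36-fold, adjusted p = 0.0424). For the other 7 genes the 95% intervals at the brightest probe, without a slide block, reached from -0.38 to 0.43. The interval of Tal1 (-0.38 to -0.02) left out 0, with an adjusted p of 0.186. With slide as a fixed block the differences of these 7 genes themselves ran from -0.31 (Tal1) to 0.70 (Klf1), and none passed. The arrays of the vectors did not overlap for 3 of 12 probes, a share below the 32.9% of all tested probes. The Zfpm1 call ended with normexp correction (-0.46, adjusted p = 0.114), without the detection filter (adjusted p = 0.106), and with slide as a fixed block (-0.48, adjusted p = 0.193) or a random block (-0.46, adjusted p = 0.199), while its size hardly changed. Of the 12 fits that each left out 1 array it passed in 3, those without shRNA replicate A before 4-OHT, shRNA replicate C after it or control replicate A after it, and adjusted p over the 12 ran from 0.0305 to 0.142.

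After 4-OHT, Hlf was higher in shRNA cells by 0.71 (SE 0.10, 1.64-fold, adjusted p = 0.0113) and Zfpm1 was lower, with a log2 difference of -0.46 (SE 0.07, 1.38-fold, adjusted p = 0.0128). Of the Myb probes, A_51_P375538 was higher by 0.49 (SE 0.09, 1.4-fold, adjusted p = 0.0142), while the brightest, A_51_P375543, differed by 0.25 (adjusted p = 0.086), A_52_P444839 by -0.02 (adjusted p = 0.902) and A_52_P83704 by 0.34 (adjusted p = 0.163). These are 3 of 12 probes, where 16.9% of all tested probes were called, and the arrays of the vectors did not overlap for 6 of 12 probes, against 39.4% of all, so neither count sets the factors apart. Hoxa9 differed by 0.18 (adjusted p = 0.0674), Lmo2 by -0.23 (adjusted p = 0.0878) and Tal1 by -0.26 (adjusted p = 0.0951), and none of these passed. Gata2 differed by 0.25 at its brighter probe (95% interval -0.10 to 0.60) and by -0.21 with normexp. With slide as a fixed block Hlf differed by 0.48 (adjusted p = 0.754), Zfpm1 by -0.43 (0.673) and Myb A_51_P375538 by 0.36 (0.727), and with slide as a random block by 0.63 (0.135), -0.44 (0.135) and 0.42 (0.151). None passed, and vector and slide cannot be told apart within a treatment. The call of Myb A_51_P375538 also ended without control replicate B or shRNA replicate C after 4-OHT (adjusted p = 0.0523 and 0.053) and that of Zfpm1 without control replicate B after it (0.0514). With normexp correction, which moved the median of all probes to -0.133, Hlf differed by 0.28 (adjusted p = 0.167).

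**Figure D4:**
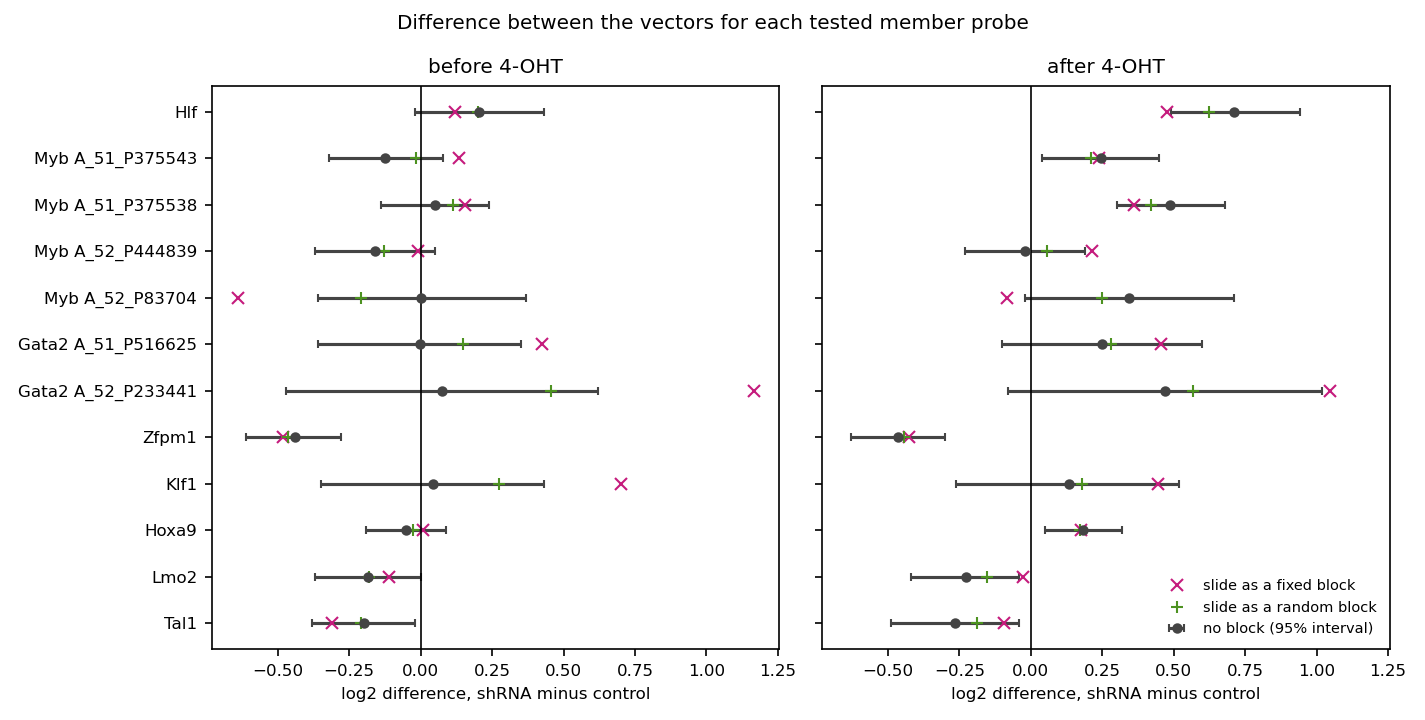
Log2 difference between shRNA and control cells (x axis) before (left) and after 4-OHT (right) for each tested probe (y axis), n = 3 arrays a group (2 for Tal1 after 4-OHT). Grey points with 95% intervals come from the fit without a block, crosses from slide as a fixed block and plus signs from slide as a random block; Zfpm1 stays between -0.48 and -0.43 in all 6 fits, and the Gata2 probe A_52_P233441 moves to 1.17 and 1.05 with the fixed block.

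The difference between the 4-OHT responses of the vectors was tested directly with limma, and 0 of 12 probes passed, where 0.00447% of all tested probes did. At an unadjusted p below 0.05 there were 4 of 12 probes, against 1146 of all 22362. For Hlf the difference was 0.51 (SE 0.14, 95% interval 0.19 to 0.83, unadjusted p = 0.00527, adjusted p = 0.869). For Myb A_51_P375538 it was 0.44 (interval 0.17 to 0.70, unadjusted p = 0.00454, adjusted p = 0.867). For the brightest Myb probe it was 0.37 (interval 0.08 to 0.66, adjusted p = 0.955) and for Hoxa9 0.23 (interval 0.04 to 0.43, adjusted p = 0.955). These sizes moved with the processing. Hlf differed by 0.154 with normexp, 0.358 with slide as a fixed block and 0.425 with slide as a random block. The brightest Myb probe differed by 0.42, 0.104 and 0.224 in the same settings. The intervals of Zfpm1 (-0.26 to 0.21), Lmo2 (-0.31 to 0.22) and Tal1 (-0.36 to 0.22) span 0. Those of Klf1 (-0.46 to 0.64) and the brighter Gata2 probe (-0.25 to 0.75) span it too and are wider.

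Other genes of the pathway were followed through lists, to be read against the 22.1% lower and 17.6% higher of all tested probes in control cells and the 20.7% and 16.6% in shRNA cells. Of 13 tested partners of the TAL1-LMO2-GATA complex and fellow blood factors, 6 were lower with 4-OHT in control cells and none higher, with a list median of -0.08, and 5 were lower and 1 higher in shRNA cells. Fli1, an ETS factor of megakaryocytes and endothelium, fell by 1.25 and 1.13, and the ETS repressor Etv6 fell by 0.91 and 0.64 in control and shRNA cells. Lyl1, the close relative of Tal1, fell by 0.43 and 0.41. The ETS factor Erg passed in both vectors, at least 1.24-fold lower in shRNA cells, but in control cells it was not well above background on any array of either group and has no fold. Gata1, the erythroid GATA factor, was not well above background on any array, and Ldb1, the bridging protein of the complex, changed by -0.05 and -0.15 without passing.

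Among HOX and TALE proteins and their cofactors, 10 could be tested, and 4 were lower and 1 higher in each vector. The 4 include Hoxa5, which was not well above background on any control array and has no fold there. In shRNA cells Hoxa5 was well above background on 2 of 3 arrays before 4-OHT and 1 of 3 after it. Hoxa7 fell by 0.86 and 1.05 and Pbx2 by 0.39 and 0.41, while Meis3 was at least 1.78-fold higher in control and at least 2.07-fold higher in shRNA cells. Of the PAR leucine zipper and MYB families and cofactors, 4 of 10 were lower and 1 higher in each vector. Nfil3, a leucine zipper repressor at the sites of Hlf and its relatives, fell by 1.36 and 1.22, and Klf6 rose by 0.69 and 0.44. Of 10 stem and progenitor genes 5 were lower and 2 higher in each vector. Kit, the stem cell factor receptor, fell by 1.92 and 1.54, and Ly6a (Sca-1) fell by 1.92 and 1.47. The surface protein Procr rose by 3.56 and 2.71, and Adgrg1 rose by 2.23 and 1.87.

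Many markers of the lineages that these factors serve were not detected. Of 16 erythroid genes, 10 were not well above background on any array, including Alas2, Ahsp, Epb42 and Rhag. Of the 6 tested, Epor, the erythropoietin receptor, fell by 1.12 and 1.15 and Bcl11a by 1.07 and 0.82, Tfrc rose by 0.37 in shRNA cells, and Hba-a1 and Hbb-b1, whose probes may also bind near-identical copies, did not pass. Of 13 megakaryocyte genes on the array 6 were never well above background, including Pf4, Itga2b and Gp9. Of the 6 tested, Vwf, Selp and Gp1bb were lower and Treml1, Ppbp and Clec1b higher in both vectors. Of 12 mast cell and basophil genes 5 were never well above background, among them the mast cell proteases Cpa3, Tpsb2, Tpsab1 and Cma1. Of the 7 tested, 2 were lower and 1 higher in control cells, and 3 were lower and 1 higher in shRNA cells. Hdc and Mcpt8 fell by 1.75 and 1.10 in control cells, and Il1rl1 was at least 10.5-fold higher there. Ms4a2 was well above background on 2 of 3 control arrays before 4-OHT and on all 3 arrays of each other group.

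Marker levels of other cell types moved with the treatment. The summed level of the 11 monocyte and macrophage genes with a value on every array, in multiples of the array's 75th percentile, ran from 12.6 to 14.5 in control cells before 4-OHT and from 43.7 to 51.2 after it, and from 11.4 to 12.2 and 33.3 to 40.2 in shRNA cells. Of these genes 11 could be tested, and all 11 were higher in each vector. Without Cd14, the brightest, whose probe was saturated on 5 arrays, the other 10 summed to 1.17 to 1.53 and 11.3 to 11.9 in control cells and 0.963 to 1.14 and 7.89 to 9.03 in shRNA cells. The 9 genes of the neutrophil primary granule list summed to 199 to 247 before and 121 to 163 after 4-OHT in control cells. In shRNA cells they summed to 194 to 224 and 113 to 153, and 6 of the 9 were lower in each vector. Probes of Mpo, Ctsg, Ms4a3 and Gfi1 were saturated on 10, 12, 12 and 2 of the 12 arrays. These sums thus have no true scale. The 5 other genes, which include Cebpa and Csf3r, summed to 61.2 to 68.6 and 20.9 to 26 in control cells. In shRNA cells those 5 summed to 66.7 to 70.9 and 27.9 to 29.8. The sum of the 16 erythroid genes was 10.1 to 11 and 10.1 to 10.5 in control cells and 10.7 to 14.1 and 13.5 to 14.5 in shRNA cells. The transferrin receptor gene Tfrc made up 83.8% of it; without Tfrc the other 15 summed to 2.02 to 2.33 and 1.20 to 1.37 in control cells and 2.35 to 2.71 and 1.5 to 1.65 in shRNA cells. That of the 13 megakaryocyte genes lay between 1.48 and 1.64 before and between 0.888 and 1.20 after 4-OHT in control cells, and between 1.56 and 1.73 and between 0.99 and 1.11 in shRNA cells. Vwf made up 35.3% of it. Without Vwf the other 12 summed to 0.872 to 0.987 and 0.696 to 0.909 in control cells, which overlapped. In shRNA cells those 12 summed to 0.885 to 1.06 and 0.71 to 0.808. The 12 mast cell and basophil genes summed to 1.38 to 1.48 and 1.12 to 1.24 in control cells and 1.43 to 1.60 and 1.05 to 1.07 in shRNA cells. Mcpt8 made up 52.2% of that sum, and the fall did not hold without it. The other 11 genes rose from 0.495 to 0.616 before 4-OHT to 0.733 to 0.759 after it in control cells. In shRNA cells these 11 overlapped, at 0.571 to 0.623 before and 0.579 to 0.622 after. The part of these shifts in the changes of the 9 factors was not tested.

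Between the vectors 0 of the 82 tested genes of these lists were called by limma before 4-OHT, where 0.362% of all tested probes were. At an unadjusted p below 0.05 there were 20 of the 82 (24.4%), near the 23.3% of all tested probes. After it 25 of the 82 were called (30.5%), where 16.9% of all tested probes were. The 82 genes were chosen with earlier results of these data known, and each is read by its brightest tested probe. Their shares and those of all single probes are therefore not of like sets. After 4-OHT, Ly6a was higher in shRNA cells by 0.74 (adjusted p = 0.0113), Kit by 0.49 (0.00995), Gfi1 by 0.61 (0.00927), Bcl11a by 0.55 (0.0133) and Tfrc by 0.45 (0.0207). The smaller calls above 0 were Cebpa, Csf3r, Selp, Tef, Mybl2, Etv6, Runx1, Lmo4, Dot1l and Meis2, each under 0.40. Lower in shRNA cells were Egr2 (-1.03, adjusted p = 0.0162), Angpt1, Msr1, Mmp12, Procr, Il1rl1, Tcf3, Ssbp3, Cd14 and Adgrg1. With slide as a random block 0 of the 22362 probes were called after 4-OHT by limma (3843 at an unadjusted p below 0.05), and 1 with slide as a fixed block.

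Promoters of 8 of the 9 genes, 10 windows in all, were read from RefSeq's table for GRCm38.p6, from 250 bases before to 50 after a transcript start; Lmo2 has no entry there. On both strands, counting overlapping motifs separately, GATAA (the GATA motif) was in 3 of the 10 windows and in 25.4% of 32851 promoters of the table. The E-box CANNTG was in 7 of 10 against 72.3%, GAGGAA (an ETS core like that of PU.1) in 2 against 28.3%, CACCC (the Krüppel-like factor motif) in 8 against 57.5%, and AACNG (the MYB core) in 8 against 80.3%. The GATAA windows were those of Klf1, Hoxa9 and the first Tal1 start, and the Hoxa9 window held 4 GAGGAA matches. Klf1 and Tal1 are printed because they hold a GATA motif and changed with 4-OHT by different amounts (log2 -2.10 and -0.28 in shRNA cells). Capitals mark GATAA, which reads TTATC where it lies on the other strand; counted from the transcript start, the match begins at -80 in Klf1 (chr8:84901732-84902031, plus strand) and at -205 in Tal1 (chr4:115056176-115056475, plus strand):

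Klf1: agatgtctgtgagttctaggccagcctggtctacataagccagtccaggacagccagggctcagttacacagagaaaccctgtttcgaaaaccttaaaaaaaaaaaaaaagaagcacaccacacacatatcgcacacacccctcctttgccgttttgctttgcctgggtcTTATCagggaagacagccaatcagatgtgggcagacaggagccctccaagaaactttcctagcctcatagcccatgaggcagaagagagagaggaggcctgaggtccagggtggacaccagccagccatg
Tal1: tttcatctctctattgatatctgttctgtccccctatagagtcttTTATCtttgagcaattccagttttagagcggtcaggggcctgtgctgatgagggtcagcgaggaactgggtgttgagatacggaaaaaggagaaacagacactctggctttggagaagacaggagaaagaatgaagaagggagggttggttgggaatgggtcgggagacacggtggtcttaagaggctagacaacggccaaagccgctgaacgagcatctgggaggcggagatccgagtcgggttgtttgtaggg

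A match of letters is a description of the window and shows no binding.

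The genes most like each factor were found by the root mean square difference of log2 values over the 12 arrays, each gene centred on its own mean, among 11701 named genes. For Hlf they were Slco4a1 (0.12) and Ifnlr1 (0.124), for Klf1 Slc4a5 (0.133) and Nrg4 (0.141), and for Gata2 Unc119 (0.146) and Ccdc65 (0.148). For Myb they were Prtn3 (0.075), which encodes proteinase 3 of the primary granules, and Slc25a37 (0.079), the mitochondrial iron importer mitoferrin 1. Hoxa9 was closest to Eaf1 (0.069) and Tgif1 (0.07), Lmo2 to Rbms2 (0.07) and Ktn1 (0.075), and Zfpm1 to Pomt2 (0.091) and Cadm4 (0.099). Tal1, over the 10 arrays where it has a value, was closest to Actl6a (0.042) and Mad2l2 (0.046). The measure follows the size of the 4-OHT change: Prtn3 changed by -1.47 and -1.22 in control and shRNA cells and Slco4a1 by -1.95 and -1.55.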

How the data were processed

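RNA from PUER cells was read on 12 arrays in 4 groups of 3 by vector and treatment. Per the file headers, the authors read design 014868 (build mm7) with Agilent Feature Extraction 9.5.3.1, given as 9.5 in the submitters' processing notes; the deposited intensity of a spot is the Cy3 signal on a linear scale with background subtracted, and arrays were not scaled to each other. A deposited summary table lies within 0.497% of it.

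Control and outlier-marked spots were left out, intensities were divided by the array's 75th percentile and put on the log2 scale, and spots of a probe were averaged. Probes well above background on at least 3 of 12 arrays, with values on at least 2 arrays of each group, were tested (22362). limma 3.58.1 in R 4.3.3 fitted 4 group means; 5 contrasts were taken, with Benjamini-Hochberg adjustment over all tested probes and a threshold of 0.05. The script was tested on simulated data. A gene was called by its brightest tested probe. The p-values measure the spread between arrays of a group, which holds that of the clones and, in groups that span slides, that of the slides. Figures used Python 3.11.15 and matplotlib 3.10.9.

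The members, lists, motifs and alternatives were chosen with earlier results of these data known. From each list and 4-OHT contrast, up to 2 called genes with the largest rise and up to 2 with the largest fall were to be named. This held if their brighter group was well above background on all its arrays. For the vector contrasts every called gene was to be named. Not every gene of this plan is given with its 4-OHT change, and other named genes were chosen after their values were seen. Genes were named through transcript identifiers (22951 probes), current (6659) or older symbols (3109) of the GRCm38.p6 table, or as in the scanner files (8455). Alternatives were quantile normalization, normexp (offset 50), other filters, 1 probe per gene, the summary table, slide and replicate blocks, single slides, and leaving out each array. 1 probe sequence and 1 marker gene's name are not reported here.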

Additional observations from a re-analysis of the deposited data

How the results depend on the processing

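No member value changed sign where it was called, under any alternative run. With 4-OHT, the calls of Hlf, Klf1, Hoxa9, Lmo2, the brightest Myb probe and the brighter Gata2 probe were past the threshold in every alternative and without any 1 array. The number of probes called was 4639 within slide 1 for control and 3585 within slide 3 for shRNA cells; leaving out 1 array gave 7200 to 9171 and 6648 to 9177, with 7 member genes each time in control and 7 to 8 in shRNA cells.

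The vector comparisons depended on the processing. Before 4-OHT, 81 probes were called in all, against 464 with quantile normalization, 3 with normexp, 19 without a detection filter, 168 with the filter on a whole group, 0 and 2 with slide as a fixed and random block (limma, with 3592 and 3176 at an unadjusted p below 0.05), and 2 to 932 without 1 array. Member genes called were 0 with normexp, without the filter and with either slide block, and 0 to 1 without 1 array. After 4-OHT, 3787 probes became 462 without the filter, 1 and 0 with slide as a fixed and random block, and 225 to 4654 without 1 array. Member genes called were then 1 with normexp, 0 with either slide block, and 1 to 3 without 1 array. For the difference between responses the 1 probe called became 0 with quantile normalization, normexp, no filter, 1 probe per gene and either slide block, and 0 to 2 without 1 array, with 0 member genes. The cause of these differences was not tested.

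Replicate letters share only a letter: the deviations of same-lettered arrays correlated between -0.06 and 0.29, above 0.1 in 5 of 18 pairs. With the replicate block, 307 probes were called before 4-OHT and 0 for the difference between responses; Tal1 in shRNA cells no longer passed (-0.25, adjusted p = 0.135), Myb A_52_P83704 differed between vectors after 4-OHT (0.34, adjusted p = 0.045), and no other member call changed.

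The number of arrays limits the precision. Signal over background limits Meis1, Klf1 after 4-OHT and the dimmer Gata2 probe, whose fall in control cells did not pass with normexp.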
